A study of Capra hircus with 9 samples.

Results

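NRF2, the product of the gene NFE2L2, is a transcription factor that switches on detoxifying and antioxidant genes. The rule named 10 genes of this pathway, and 9 of them were listed by name among the 18383 genes of the deposited files: NFE2L2, its repressor gene KEAP1, and the NRF2 target genes NQO1, GCLC, GCLM, HMOX1, GPX2, TXNRD1 and SRXN1. The tenth, TXN, had no line under that symbol. RefSeq gives the symbol TXN to gene ID 102187487, which the files list as LOC102187487, so its values are shown beside the 9 but are left out of the counts of members. All 9 genes and TXN passed the filter on low values.

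In resting cells the KEAP1 protein holds NRF2 in the cytoplasm and passes it on for degradation. Oxidants and electrophiles modify cysteines of KEAP1, and NRF2 then collects in the nucleus, where it pairs with small MAF proteins and binds antioxidant response elements beside its target genes. Much of this control acts on the protein, so the mRNA of NFE2L2 does not measure NRF2 activity. The targets include enzymes that reduce quinones, make glutathione, break down haem and feed the thioredoxin system. The rumen epithelium is a stratified squamous lining that absorbs and metabolises short-chain fatty acids made by the rumen microbes.

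RNA of rumen epithelium was sequenced from goats (Capra hircus) aged 4 months on 3 diets, with 3 libraries each: HC diet, MC diet and LC diet. The series describes them only as 3 types of concentrate diet, and the letters are kept as the titles give them. No other treatment, strain or sex is given in the sources used here, nor whether the libraries of a diet came from separate animals, so p-values measure only the spread between these libraries. Levels are given in FPKM. This unit counts fragments per length of transcript and per size of library, which allows levels of different genes to be set side by side. Changes are differences of log2(FPKM + 1) with their SE, from 1 limma fit over 11668 genes with Benjamini-Hochberg adjustment and a threshold of 0.05, and this scale understates changes of low genes. HC minus LC and MC minus LC share the LC libraries, and HC minus MC shares its libraries with both.

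The libraries carried the markers of a stratified epithelium, with KRT5, a basal keratin, at 2696 to 4803 FPKM, while DSG1 stayed under 1 FPKM and KRT13, KRT15 and KRT6A were not listed. The summed level of 10 smooth muscle markers differed far more, at 115 to 151 FPKM in HC, 1209 to 3749 FPKM in MC, 2515 FPKM in LC1, 1335 FPKM in LC2 and 62.3 FPKM in LC3. These are markers of the rumen wall, and their sum was low in HC and LC3 and high in the other 5 libraries. ACTA2, 1 of the 10, did not follow this order. It stood at 25.1 to 32.4 FPKM in HC, 14.8 to 31.0 FPKM in MC, and 23.0, 19.7 and 9.19 FPKM in LC1, LC2 and LC3. Because of the differences in the sum, results are also given with LC3 alone for LC, with the muscle markers as a covariate and without LC3. The sum of 12 listed macrophage and dendritic cell markers was 44.6 to 57.0 FPKM in HC, 27.1 to 39.3 FPKM in MC and 87.9 to 92.2 FPKM in LC. The 6 neutrophil markers summed to 50.2 to 96.0 FPKM in HC, 37.5 to 86.5 FPKM in MC and 3547 to 6828 FPKM in LC. Nearly all of this sum was S100A8 and S100A12, while CSF3R and MPO were near 0 or not listed. CXCR2, another of the 6, showed no gap of this size. It stood at 0.941 to 1.303 FPKM in HC, 1.206 to 1.998 FPKM in MC and 1.729 to 2.004 FPKM in LC. The sum in LC thus describes S100A8 and S100A12, and a difference in neutrophils was not tested. Of 5 T and NK cell markers tested, 1 rose and 4 fell in HC minus LC, against 7.79% and 17.4% of all genes. In MC minus LC 1 rose and 3 fell, against 16.2% and 17.1%. KRT4, a keratin of the epithelium list, stood at 16.1 to 29.2 FPKM in HC, 1.65 to 2.25 FPKM in MC and 31.6 to 69.8 FPKM in LC. The part of these markers in the levels of the NRF2 genes was not tested. In bulk RNA, fewer cells of a type and less RNA per cell cannot be told apart. The deposited scale set the median of all genes lower in HC, by a log2 change of -0.10 in HC minus LC and -0.10 in HC minus MC, against -0.0067 in MC minus LC.

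The NRF2 genes did not move as a block. NQO1, GCLC and SRXN1 were highest in MC, HMOX1 and GCLM were highest in HC and lowest in MC, TXNRD1 was lowest in LC, and GPX2 was highest in LC. NFE2L2 was lower in HC than in either other diet, and KEAP1 passed no test. Of the 9 members, 8 differed among the 3 diets by limma's F test, all except KEAP1 (adjusted p = 0.439), against 45.2% of all genes tested. This test includes the MC against LC movement of NQO1 and HMOX1 that was named when the genes were chosen, so nothing is read from the count.

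**Figure D1:**
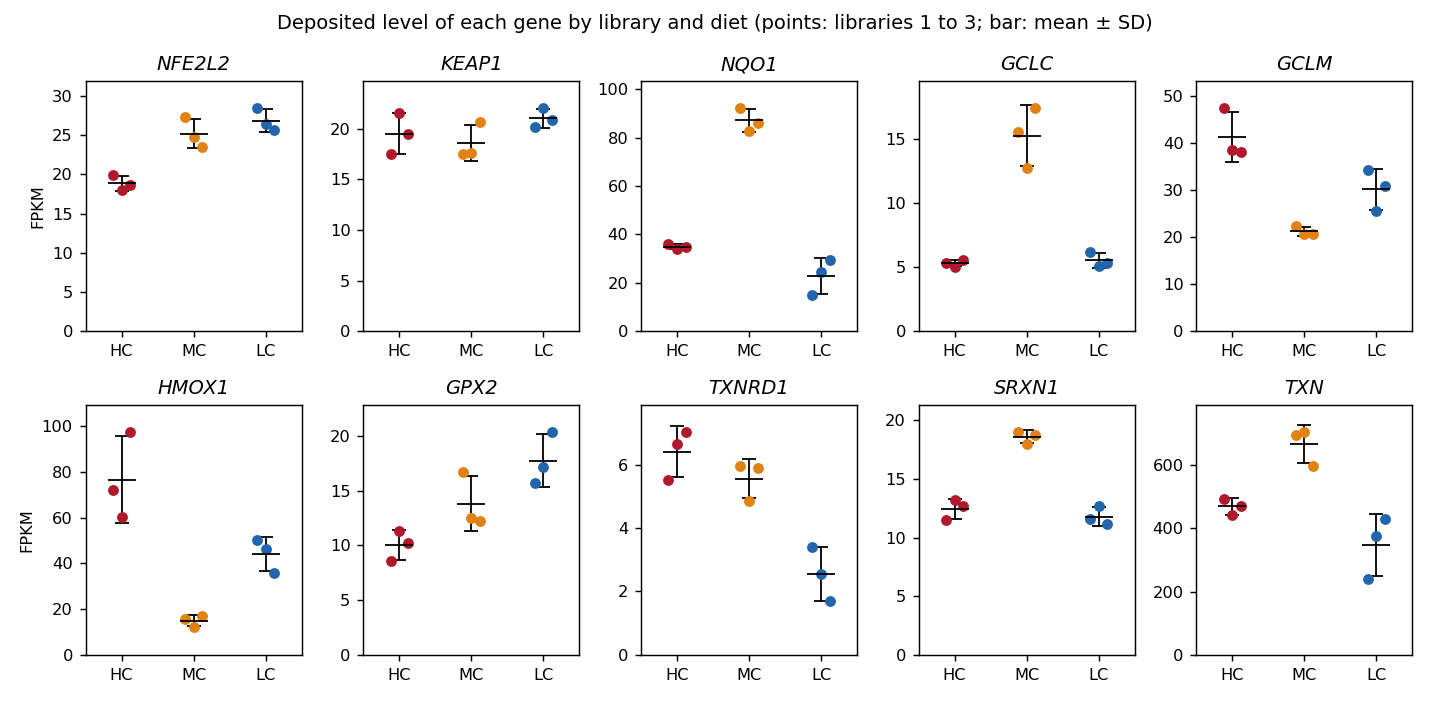
FPKM of each NRF2 gene and of TXN (vertical axis, from 0) in HC, MC and LC libraries, with points for libraries 1 to 3 of a diet and a bar for the mean ± SD. MC libraries stand above all others for NQO1 (82.8 to 92.4 FPKM) and GCLC (12.7 to 17.4 FPKM) and below all others for HMOX1 (12.1 to 16.8 FPKM).

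NFE2L2 (chromosome 2, 18909358 to 18996278) encodes NRF2 itself. It stood at 19.9, 18.1 and 18.6 FPKM in HC1, HC2 and HC3, at 27.3, 24.8 and 23.6 FPKM in MC1, MC2 and MC3, and at 28.5, 26.5 and 25.7 FPKM in LC1, LC2 and LC3. All HC libraries lay below all MC and LC libraries, while MC and LC overlapped. The change was -0.49 ± 0.11 in HC minus LC (adjusted p = 0.00819) and -0.40 ± 0.11 in HC minus MC (adjusted p = 0.0232), and MC minus LC did not pass (-0.090, 95% interval -0.33 to 0.15, adjusted p = 0.571). Against the lower median of all genes in HC these falls are smaller: with median-of-ratios scaling they were -0.33 (adjusted p = 0.0516) and -0.27 (adjusted p = 0.101), and the calls were lost. With LC3 alone the HC minus LC call was also lost (-0.43, adjusted p = 0.106), as with the muscle covariate (-0.43, adjusted p = 0.0529), and over all 18 alternatives its adjusted p ran from 0.00422 to 0.106. That of HC minus MC ran from 0.0117 to 0.331, the highest with the muscle covariate, and this call was lost without HC2, HC3, MC1 or MC2 (adjusted p = 0.0762, 0.0818, 0.0996 and 0.0643).

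KEAP1 (chromosome 7, 11528345 to 11536894), the repressor, was at 17.5, 21.5 and 19.5 FPKM in HC1, HC2 and HC3, at 17.5, 17.6 and 20.6 FPKM in MC1, MC2 and MC3, and at 20.2, 22.04 and 20.9 FPKM in LC1, LC2 and LC3. The 3 diets overlapped. The 95% interval of the change was -0.37 to 0.15 in HC minus LC, -0.44 to 0.086 in MC minus LC and -0.19 to 0.33 in HC minus MC, so changes within these bounds are not excluded.

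The ratio of NFE2L2 to KEAP1 was also taken within each library. As mean log2 ratio of FPKM + 1 it was -0.042 ± 0.21 in HC, 0.42 ± 0.22 in MC and 0.34 ± 0.12 in LC (SD, n = 3 each). All HC libraries lay below all MC and LC libraries, and MC and LC overlapped. The diets accounted for 63.8% of its variation, which missed the threshold in an exact permutation test over 1680 assignments (p = 0.0536, adjusted over the 2 ratios tested 0.0536). Leaving out HC1 or MC3 gave p = 0.0357 and p = 0.0214 by the exact permutation test, within a range of 0.0214 to 0.146 over the libraries left out.

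NQO1 (chromosome 18, 36057117 to 36070333) encodes a quinone reductase and is the target most often used to read NRF2 activity. Its level was 36.1, 33.9 and 35.0 FPKM in HC1, HC2 and HC3, 92.4, 82.8 and 86.3 FPKM in MC1, MC2 and MC3, and 14.8, 24.3 and 29.4 FPKM in LC1, LC2 and LC3. The 3 diets did not overlap, and the LC libraries were the most spread. In HC minus MC it fell by 1.29 ± 0.20 (adjusted p = 0.00114), and in HC minus LC it was higher by 0.65 ± 0.20 (adjusted p = 0.033). The change of 1.94 in MC minus LC (95% interval 1.51 to 2.37) is given as a description, since the opposite movement of NQO1 and HMOX1 there was named when the genes were chosen. HC minus LC and HC minus MC share libraries with it, so their p-values for NQO1 and HMOX1 are not independent of that choice.

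The difference between HC and LC in NQO1 was smaller against LC3, the LC library low in muscle markers, and without LC1, the library with the lowest NQO1, it was 0.38 (adjusted p = 0.04). With LC3 alone it was 0.24 (adjusted p = 0.32), with the muscle covariate 0.34 (adjusted p = 0.227), and without HC1, HC2 or HC3 the call was also lost (adjusted p = 0.0764, 0.07 and 0.0892), within a range of 0.00862 to 0.32 over the 18 alternatives. MC minus LC was 1.53 with LC3 alone and 2.14 without LC3, where MC and the remaining LC libraries were all high in muscle markers.

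GCLC and GCLM encode the catalytic and the modifier subunit of glutamate-cysteine ligase, the rate-limiting enzyme of glutathione synthesis, and they moved apart. GCLC (chromosome 23, 6692967 to 6737394) stood at 5.35, 5.05 and 5.52 FPKM in HC1, HC2 and HC3, at 15.6, 12.7 and 17.4 FPKM in MC1, MC2 and MC3, and at 6.18, 5.09 and 5.31 FPKM in LC1, LC2 and LC3. The MC libraries lay above the rest, and HC and LC overlapped. GCLC rose by 1.31 ± 0.13 in MC minus LC (adjusted p = 2.93e-05), which is 2.48-fold in FPKM + 1, and fell by 1.35 ± 0.13 in HC minus MC (adjusted p = 7.89e-05). HC minus LC did not pass (-0.046, 95% interval -0.33 to 0.24, adjusted p = 0.821).

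GCLM (chromosome 3, 47180948 to 47197677) had 47.4, 38.4 and 38.1 FPKM in HC1, HC2 and HC3, 22.2, 20.7 and 20.6 FPKM in MC1, MC2 and MC3, and 34.2, 25.5 and 30.8 FPKM in LC1, LC2 and LC3. Its order was the reverse of that of GCLC at the MC end: every MC library lay below every other library, and the HC libraries lay above the LC libraries. The rise of 0.93 ± 0.14 in HC minus MC (adjusted p = 0.000987) passed the test in all 18 alternatives. GCLM fell by 0.48 ± 0.14 in MC minus LC (adjusted p = 0.019, range 0.00588 to 0.0951 over the alternatives, lost without MC2, MC3 or LC3 at 0.0621, 0.0552 and 0.0535 and with LC3 alone at 0.0566). It was higher by 0.44 ± 0.14 in HC minus LC (adjusted p = 0.0356), but this call passed in only 7 of 18 alternatives, was lost without any 1 of HC1, HC2, HC3, MC1, MC2, LC2 or LC3 (adjusted p = 0.107, 0.0531, 0.0642, 0.0515, 0.0553, 0.134 and 0.0627), and had an adjusted p of 0.156 with LC3 alone, within a range of 0.0092 to 0.244.

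The subunits can be compared within a library through their ratio. In FPKM, GCLC over GCLM was 0.113, 0.131 and 0.145 in HC1, HC2 and HC3, 0.700, 0.616 and 0.845 in MC1, MC2 and MC3, and 0.181, 0.199 and 0.172 in LC1, LC2 and LC3. The mRNA of the modifier subunit was thus the more abundant in all 9 libraries, and MC came nearest to equal levels. As log2 ratios of FPKM + 1 the means were -2.74 ± 0.18 in HC, -0.46 ± 0.22 in MC and -2.25 ± 0.11 in LC (SD, n = 3 each). Diet accounted for 98.0% of the variation, and the exact permutation test over 1680 assignments gave p = 0.00357, the smallest it can give (adjusted over the 2 ratios 0.00714).

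**Figure D2:**
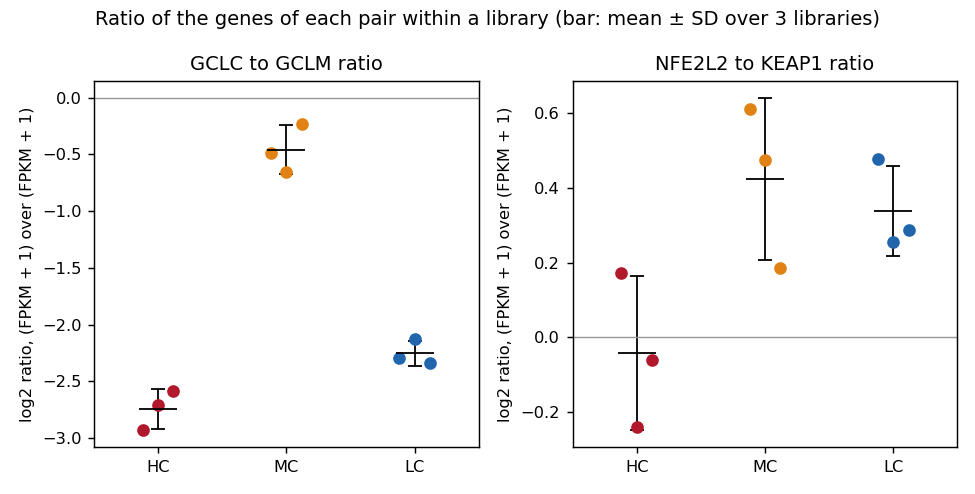
Log2 ratio of FPKM + 1 within each library for GCLC to GCLM and for NFE2L2 to KEAP1 (vertical axis), by diet, with points for libraries and a bar for the mean ± SD of 3 libraries. The GCLC to GCLM ratio averages -0.46 in MC against -2.74 in HC and -2.25 in LC, while the NFE2L2 to KEAP1 ratio overlaps between MC and LC and lies lower in all HC libraries.

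HMOX1 (chromosome 5, 71485484 to 71493501) encodes haem oxygenase 1, which cleaves haem to biliverdin, iron and carbon monoxide and is repressed by BACH1 until haem removes that repressor. Its level was 72.1, 60.3 and 97.7 FPKM in HC1, HC2 and HC3, 15.8, 12.1 and 16.8 FPKM in MC1, MC2 and MC3, and 50.2, 46.2 and 35.8 FPKM in LC1, LC2 and LC3. The diets did not overlap, in the order HC, LC, MC. HMOX1 rose by 2.27 ± 0.19 in HC minus MC (adjusted p = 4.01e-05), or 4.83-fold in FPKM + 1. HC minus LC was 0.77 ± 0.19 (adjusted p = 0.014). In MC minus LC the change of -1.50 (95% interval -1.93 to -1.08) is a description, for the reason given for NQO1. The limit stated there on the p-values of the other comparisons holds for HMOX1 too.

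HMOX1 is also made by macrophages that take up red cells. Of the 10 macrophage and dendritic cell markers tested, 0 rose and 5 fell in HC minus LC, where HMOX1 was higher, 0 rose and 9 fell in MC minus LC, where HMOX1 was lower, and 4 rose and 1 fell in HC minus MC, where HMOX1 was higher. CD163, the haemoglobin receptor of macrophages, was not listed. The part of macrophages in the levels of HMOX1 was not tested in any comparison. With LC3 alone HMOX1 was 1.05 higher in HC (adjusted p = 0.0323), and without LC3 it was 0.63 higher (adjusted p = 0.0464). The call was lost without HC3, the highest library (0.58, adjusted p = 0.0642), and when libraries were scaled to equal FPKM sums (0.64, adjusted p = 0.0733), within a range of 0.00439 to 0.0733.

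GPX2 (chromosome 10, 73143717 to 73147213) encodes the glutathione peroxidase of gut epithelia, which reduces hydroperoxides. It had 8.56, 11.3 and 10.2 FPKM in HC1, HC2 and HC3, 16.7, 12.5 and 12.2 FPKM in MC1, MC2 and MC3, and 15.7, 17.1 and 20.4 FPKM in LC1, LC2 and LC3. HC lay below both other diets, and MC overlapped with LC through MC1. GPX2 fell by 0.76 ± 0.15 in HC minus LC (adjusted p = 0.0041), and this call passed in all 18 alternatives. The other contrasts did not pass, at -0.35 in MC minus LC (95% interval -0.68 to -0.014, adjusted p = 0.102, but 0.0434 without MC1) and -0.42 in HC minus MC (95% interval -0.75 to -0.085, adjusted p = 0.0639, but 0.0464 without LC1). Their adjusted p over the alternatives ran from 0.0434 to 0.293 and from 0.0146 to 0.242.

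TXNRD1 encodes the cytosolic thioredoxin reductase, a selenoprotein that recharges thioredoxin with NADPH. Its line (chromosome 5, 65747534 to 65843463) shares the locus with EID3, so its values are uncertain, and EID3 itself was at 1.03 to 1.68 FPKM in the 9 libraries. TXNRD1 had 5.50, 6.66 and 7.04 FPKM in HC1, HC2 and HC3, 5.95, 4.84 and 5.90 FPKM in MC1, MC2 and MC3, and 3.41, 2.54 and 1.70 FPKM in LC1, LC2 and LC3. The LC libraries lay below all others, and HC and MC overlapped. TXNRD1 rose by 1.08 ± 0.17 in HC minus LC (adjusted p = 0.00109) and by 0.91 ± 0.17 in MC minus LC (adjusted p = 0.00203), and both calls passed in all 18 alternatives. HC minus MC did not pass (0.17, 95% interval -0.20 to 0.55, adjusted p = 0.486).

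SRXN1 (chromosome 13, 58329664 to 58336694) encodes sulfiredoxin, which repairs over-oxidised peroxiredoxins. It had 11.5, 13.2 and 12.7 FPKM in HC1, HC2 and HC3, 19.0, 17.99 and 18.8 FPKM in MC1, MC2 and MC3, and 11.6, 12.7 and 11.1 FPKM in LC1, LC2 and LC3. MC stood above both other diets, which overlapped. SRXN1 rose by 0.62 ± 0.11 in MC minus LC (adjusted p = 0.00118, past the test in all 18 alternatives) and fell by 0.55 ± 0.11 in HC minus MC (adjusted p = 0.00443). The fall was no longer past the test with the muscle covariate (-0.48, adjusted p = 0.114, range 0.00311 to 0.114), and HC minus LC did not pass (0.071, 95% interval -0.16 to 0.31, adjusted p = 0.66).

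TXN, thioredoxin, is the small protein that TXNRD1 recharges, and LOC102187487 (chromosome 8, 97834366 to 97846307) had a higher level than any of the 9 members in every library. It stood at 493, 441 and 471 FPKM in HC1, HC2 and HC3, at 693, 705 and 597 FPKM in MC1, MC2 and MC3, and at 239, 374 and 430 FPKM in LC1, LC2 and LC3. The diets did not overlap, in the order MC, HC, LC, and LC1 was the lowest library. TXN rose by 0.97 ± 0.21 in MC minus LC (adjusted p = 0.00379, past the test in all 18 alternatives). HC minus LC was 0.47 (95% interval 0.022 to 0.92, adjusted p = 0.114, but 0.0472 without LC3, and only 0.22 with adjusted p = 0.197 without LC1) and HC minus MC -0.50 (95% interval -0.95 to -0.052, adjusted p = 0.0934, but 0.00546 without LC1), and neither passed. Their adjusted p over the alternatives ran from 0.0411 to 0.662 and from 0.00309 to 0.231.

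In HC minus LC, 4 of the 9 members rose, 2 fell and 3 did not pass, against 25.2% of genes past the test (7.79% higher, 17.4% lower). In MC minus LC, 4 rose, 2 fell and 3 did not pass, against 33.4% of genes (16.2% higher, 17.1% lower), and nothing is read from this count since that comparison was in view when the genes were chosen. In HC minus MC, 2 rose, 4 fell and 3 did not pass, against 25.0% of genes (8.0% higher, 17.0% lower). The libraries of the pair of diets did not overlap for 6, 6 and 7 of the 9 members in those 3 comparisons, against 40.6%, 47.1% and 46.4% of all genes. HC minus LC and HC minus MC share libraries with MC minus LC, so nothing is read from these counts either.

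The members past the test moved in both directions in each comparison. Over all members the median change was 0.071 in HC minus LC, -0.090 in MC minus LC and -0.40 in HC minus MC. For all genes it was -0.10, -0.0067 and -0.10. In MC minus LC and in HC minus MC the members' median was the value of NFE2L2 itself, so it does not describe the targets. With TXN added the medians were 0.26, 0.26 and -0.41. In HC minus MC the members' median lay below that of all genes, and this difference was not tested. In HC minus LC the count of members past the test was 3 with the muscle covariate and 3 without HC3, against 6. The count over all genes fell as well, to 2013 with the covariate and 1753 without HC3, against 2939. By mean FPKM, the lowest members stood at the 39.3 percentile of genes in HC (GCLC), the 37.5 percentile in MC (TXNRD1) and the 17.3 percentile in LC (TXNRD1). The highest stood at the 90.3 percentile in HC (HMOX1), the 91.2 percentile in MC (NQO1) and the 84.3 percentile in LC (HMOX1). HMOX1 was at the 63.2 percentile in MC, and NQO1 at the 81.1 percentile in HC and the 73.2 percentile in LC.

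**Figure D3:**
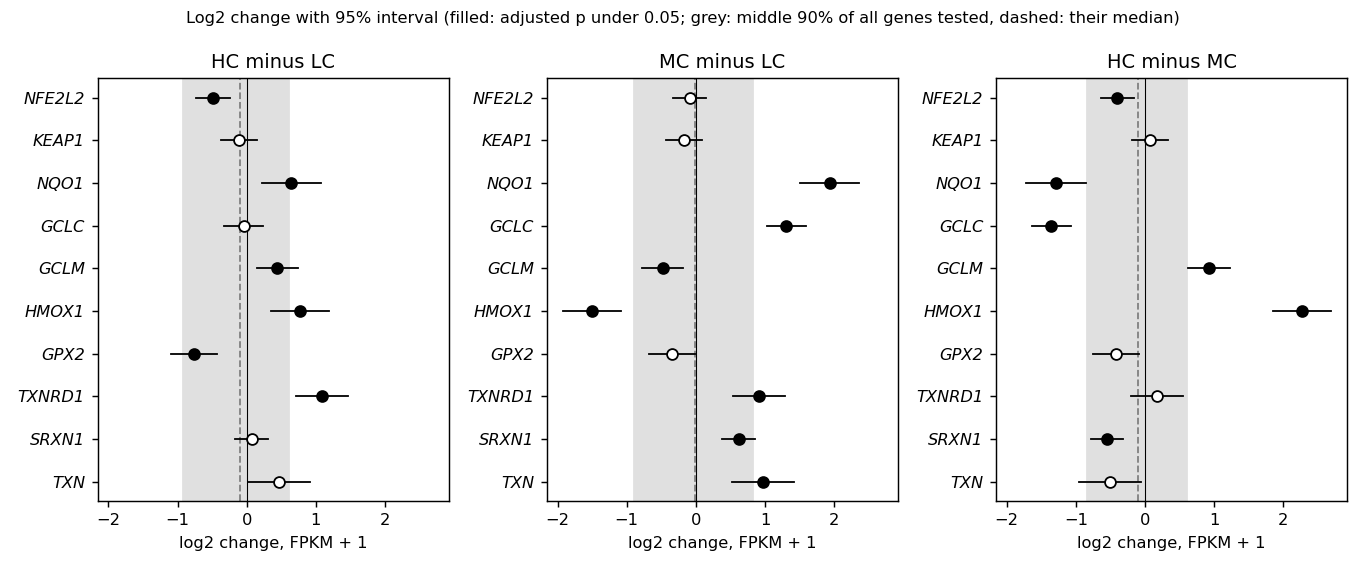
Log2 change of FPKM + 1 (horizontal axis) with its 95% interval for each NRF2 gene and TXN in the 3 comparisons, filled where the adjusted p was under 0.05, over a grey band that holds the middle 90% of all genes tested and a dashed line at their median. NQO1, GCLC and HMOX1 lie outside the band in MC minus LC (1.94, 1.31 and -1.50) and in HC minus MC (-1.29, -1.35 and 2.27). So do TXNRD1 and TXN in MC minus LC (0.91 and 0.97) and GCLM in HC minus MC (0.93). In HC minus LC, NQO1, HMOX1 and TXNRD1 lie outside it (0.65, 0.77 and 1.08). The opposite movement of NQO1 and HMOX1 in MC minus LC was named when the genes were chosen. Their place and filling there are a description only, and the other comparisons share libraries with it.

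The sum of the muscle markers moved with diet for HC against MC, and within LC it set LC1 and LC2 apart from LC3. With LC3 alone GCLC was 1.35 higher in MC (adjusted p = 0.00168) and without LC3 it was 1.29 higher (adjusted p = 0.000158), and with the muscle covariate it was 1.31 higher. The values of HMOX1 in MC minus LC, given as a description, were -1.22, -1.64 and -1.62 in the same 3 settings. The part of muscle in the results of the other members was not tested beyond the values printed here. In HC minus MC the covariate left HMOX1 at 2.55 (adjusted p = 0.000716), GCLC at -1.35 (adjusted p = 0.00368), NQO1 at -1.82 (adjusted p = 0.00121) and GCLM at 0.92 (adjusted p = 0.0254).

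**Figure D4:**
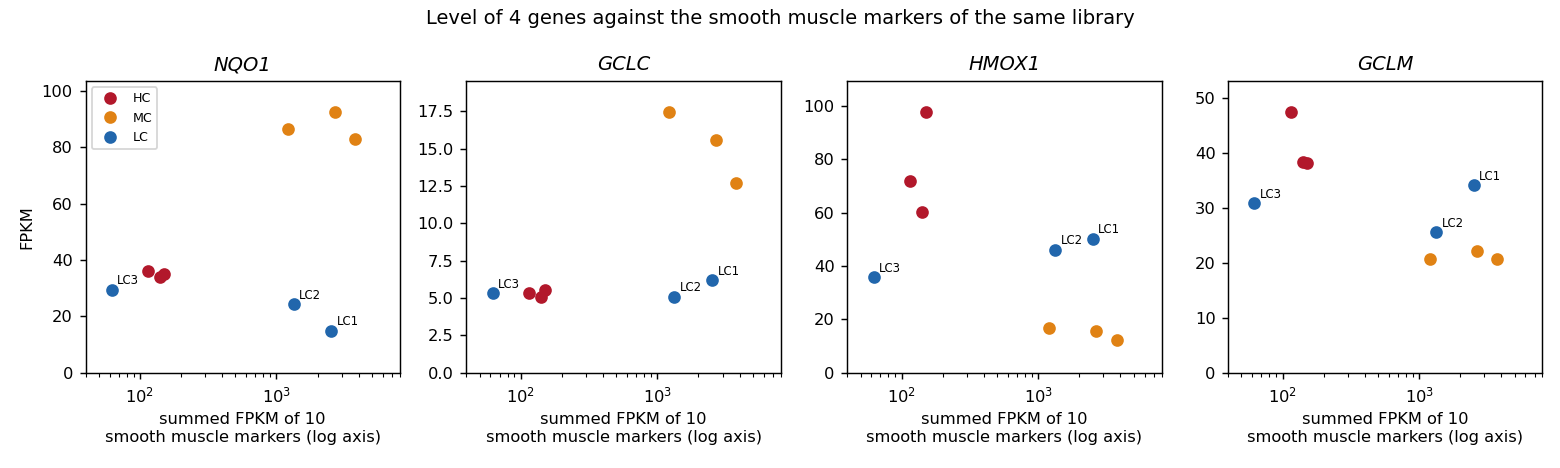
FPKM of NQO1, GCLC, HMOX1 and GCLM (vertical axes, from 0) against the summed FPKM of 10 smooth muscle markers of the same library (horizontal axis, log scale), 1 point per library with the LC libraries named. The LC libraries spread along the horizontal axis, at 62.3 FPKM in LC3, 1335 FPKM in LC2 and 2515 FPKM in LC1, and the MC libraries lie at 1209 to 3749 FPKM.

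The genes around NRF2 were read from 5 lists, and the genes named are some of the 4 with the smallest adjusted p in each list and comparison. Others of these are not named, and a named gene can also pass in a comparison that is not given. The shares of all genes past the test, 25.2% in HC minus LC, 33.4% in MC minus LC and 25.0% in HC minus MC, stand beside each list. Among partners and regulators, 13 of 14 were tested: 1 rose and 1 fell in HC minus LC, 2 rose and 3 fell in MC minus LC, and 1 rose and 1 fell in HC minus MC, which is 15.4%, 38.5% and 15.4% of those tested. MAFG, a small MAF partner of NRF2, averaged 16.3 ± 1.54 FPKM in HC and 9.05 ± 1.98 FPKM in LC (0.80 ± 0.16, adjusted p = 0.00442, but 0.145 with LC3 alone for LC, range 0.00149 to 0.145). NFE2L3, a relative of NFE2L2, averaged 9.33 ± 1.196 FPKM in MC and 4.01 ± 1.02 FPKM in LC (1.06 ± 0.15, adjusted p = 0.00038), and 4.75 ± 0.436 FPKM in HC.

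CREBBP, a coactivator that acetylates NRF2 and many other factors, was listed under its gene ID and fell to 2.60 ± 0.564 FPKM in MC, against 7.41 ± 0.664 FPKM in LC (-1.23 ± 0.18, adjusted p = 0.000374). It was also higher in HC than in MC (0.78 ± 0.18, adjusted p = 0.00944, range 0.00264 to 0.166). NFE2L1, another relative that drives proteasome genes, was at 29.8 ± 1.45 FPKM in HC and 45.7 ± 5.21 FPKM in LC (-0.59 ± 0.13, adjusted p = 0.00737). It was also lower in MC than in LC (-0.49 ± 0.13, adjusted p = 0.0147, range 0.00176 to 0.0715). BACH1, the repressor of HMOX1, was at 2.81 ± 0.240 FPKM in MC and 4.16 ± 0.333 FPKM in LC (-0.44 ± 0.12, adjusted p = 0.0127). The BACH1 call was lost without MC2 or LC3 (adjusted p = 0.0554 and 0.0537) and with equal FPKM sums (0.0715, range 0.0119 to 0.0715).

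Of the other NRF2 target genes, 22 of 28 were tested: 6 rose and 2 fell in HC minus LC, 5 rose and 2 fell in MC minus LC, and 3 rose and 2 fell in HC minus MC, which is 36.4%, 31.8% and 22.7% of those tested. Enzymes of the pentose phosphate pathway, which supplies NADPH, were among the rises over LC. TKT, transketolase, averaged 196 ± 35.8 FPKM in HC and 88.6 ± 16.8 FPKM in LC (1.14 ± 0.18, adjusted p = 0.00107). TALDO1, transaldolase, averaged 56.4 ± 3.38 FPKM in HC, 56.9 ± 3.62 FPKM in MC and 30.6 ± 3.63 FPKM in LC (0.86 and 0.88, adjusted p = 0.000706 and 0.000384).

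UGDH, which makes the UDP-glucuronate used in glucuronidation, averaged 262 ± 13.8 FPKM in HC, 242 ± 18.8 FPKM in MC and 85.8 ± 18.1 FPKM in LC (1.62 and 1.51, adjusted p = 6.17e-05 and 6.92e-05). PRDX1, a peroxiredoxin and substrate of sulfiredoxin, averaged 146 ± 21.97 FPKM in HC, 260 ± 31.5 FPKM in MC and 151 ± 25.5 FPKM in LC, and so was highest in MC as SRXN1 was (0.78 ± 0.18 in MC minus LC, adjusted p = 0.00544; -0.83 ± 0.18 in HC minus MC, adjusted p = 0.00661). OSGIN1, an oxidative stress induced growth inhibitor whose line shares its locus with NECAB2, went the other way, at 4.996 ± 0.264 FPKM in HC, 3.11 ± 0.162 FPKM in MC and 14.8 ± 2.80 FPKM in LC (-1.38 and -1.93 against LC, adjusted p = 4.53e-05 and 3.67e-06). The list's median was 0.29 in HC minus LC, 0.20 in MC minus LC and 0.14 in HC minus MC, beside the medians of all genes given above.

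Of 39 glutathione enzymes, 25 were tested and 12 were not listed, most of them glutathione S-transferases: 6 rose and 2 fell in HC minus LC, 7 rose and 2 fell in MC minus LC, and 2 rose and 5 fell in HC minus MC, which is 32.0%, 36.0% and 28.0% of those tested. GSTM3, a transferase listed under its gene ID, averaged 191 ± 8.83 FPKM in HC, 274 ± 14.7 FPKM in MC and 115 ± 31.0 FPKM in LC (1.28 ± 0.19 in MC minus LC, adjusted p = 0.000444). GGCT, which releases 5-oxoproline from glutathione breakdown products, averaged 9.07 ± 1.18 FPKM in MC and 3.38 ± 0.800 FPKM in LC (1.21 ± 0.21, adjusted p = 0.00124). GGT1, the surface enzyme that cleaves glutathione, was listed under its gene ID and was high in HC instead, at 122 ± 25.04 FPKM against 57.3 ± 9.502 FPKM in LC (1.07 ± 0.18, adjusted p = 0.00167). GLO1, which clears methylglyoxal with glutathione, averaged 113 ± 10.02 FPKM in MC and 58.5 ± 5.14 FPKM in LC (0.94 ± 0.13, adjusted p = 0.000285). The falls against LC included OPLAH, which opens 5-oxoproline to glutamate and whose line shares its locus with another gene, at 3.77 ± 0.647 FPKM in HC and 7.72 ± 0.634 FPKM in LC (-0.88 ± 0.14, adjusted p = 0.000859). They also included GPX3, the secreted glutathione peroxidase, at 1.54 ± 0.652 FPKM in HC and 5.79 ± 2.57 FPKM in LC (-1.38 ± 0.28, adjusted p = 0.00549, but 0.109 with LC3 alone for LC, range 0.000651 to 0.109).

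The list of thioredoxin, peroxiredoxin and dismutase genes had 21 of 22 tested: 4 rose and 5 fell in HC minus LC, 3 rose and 7 fell in MC minus LC, and 4 rose and 1 fell in HC minus MC, which is 42.9%, 47.6% and 23.8% of those tested. TXNIP, which binds and inhibits thioredoxin, averaged 184 ± 10.7 FPKM in HC, 190 ± 12.8 FPKM in MC and 398 ± 66.9 FPKM in LC (-1.10 and -1.05, adjusted p = 0.000479 and 0.0004). LC, with the highest TXNIP, had the lowest TXNRD1. The mitochondrial reductase TXNRD2 had another order of diets than TXNRD1, and it averaged 15.6 ± 2.48 FPKM in HC, 7.34 ± 1.09 FPKM in MC and 14.5 ± 3.49 FPKM in LC (-0.87 ± 0.18 in MC minus LC, adjusted p = 0.00333). MSRA, which repairs oxidised methionine, was at 31.5 ± 2.62 FPKM in HC, 12.5 ± 1.91 FPKM in MC and 17.1 ± 2.93 FPKM in LC (1.28 ± 0.15 in HC minus MC, adjusted p = 0.000263).

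Of 26 haem and iron genes 23 were tested: 1 rose and 2 fell in HC minus LC, 5 rose and 4 fell in MC minus LC, and 3 rose and 2 fell in HC minus MC, which is 13.0%, 39.1% and 21.7% of those tested. ALAS1, the first enzyme of haem synthesis, was lowest in MC, as HMOX1 was: 107 ± 21.7 FPKM in HC, 42.9 ± 5.96 FPKM in MC and 93.5 ± 12.6 FPKM in LC (1.28 ± 0.18 in HC minus MC, adjusted p = 0.000682; -1.10 ± 0.18 in MC minus LC, adjusted p = 0.000725). TFRC, the transferrin receptor that brings in iron, was lowest in HC, where HMOX1 was highest: 4.79 ± 2.55 FPKM in HC, 18.3 ± 1.03 FPKM in MC and 24.1 ± 2.06 FPKM in LC (-2.21 ± 0.24 in HC minus LC, adjusted p = 0.000166; -1.82 ± 0.24 in HC minus MC, adjusted p = 0.000724). NCOA4, the receptor for ferritin breakdown, averaged 53.1 ± 5.32 FPKM in MC and 33.7 ± 2.21 FPKM in LC (0.64 ± 0.13, adjusted p = 0.00276, but 0.0502 with LC3 alone for LC, range 0.00149 to 0.0502).

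**Figure D5:**
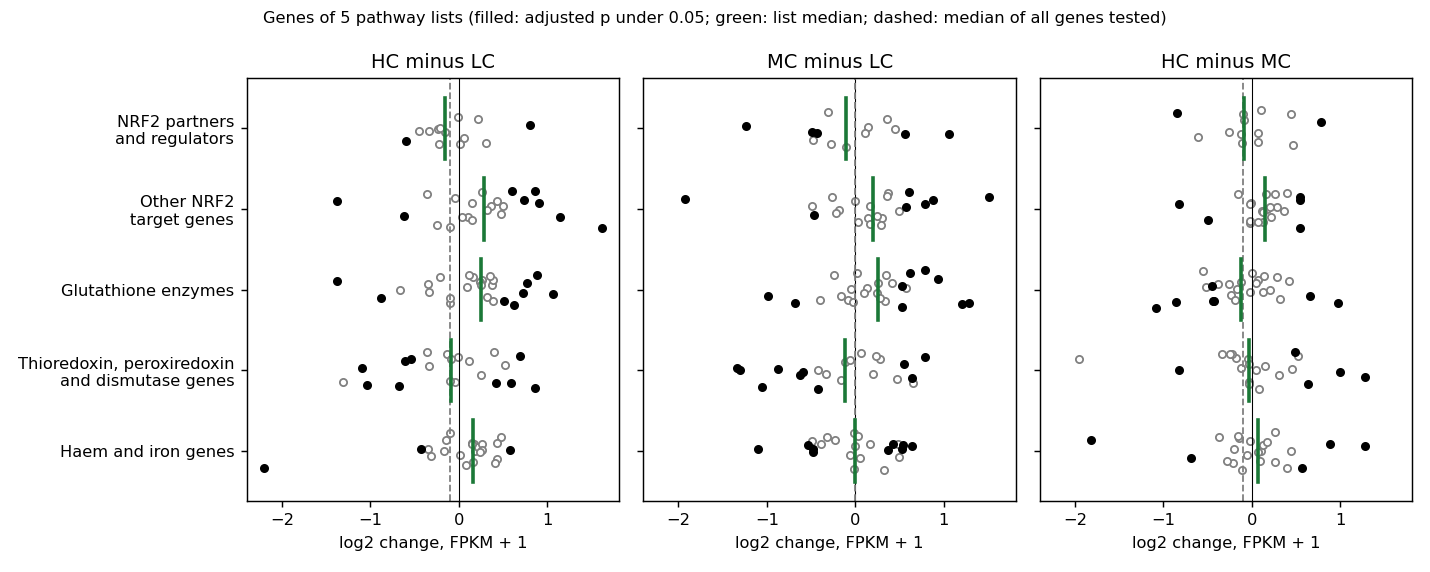
Log2 change of FPKM + 1 (horizontal axis) of each tested gene of 5 pathway lists in the 3 comparisons, filled where the adjusted p was under 0.05, with a green bar at the list's median and a dashed line at the median of all genes. Each list holds filled points on both sides of 0, and the list medians lie between -0.16 and 0.29.

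The genes most like a member were taken as those with the smallest root mean square difference of log2(FPKM + 1) over the 9 libraries, after the mean of each gene was removed. For NQO1 these were the nuclear import gene KPNA2 (difference 0.172), NIP7, which acts in ribosome assembly (0.196), and the heat shock gene HSPH1 (0.198). KPNA2 averaged 16.3 ± 0.713 FPKM in HC, 39.6 ± 1.11 FPKM in MC and 10.8 ± 1.27 FPKM in LC. NIP7 lies on the same sequence as NQO1, 294074 bases away. For HMOX1 they were ALOX12B, a lipoxygenase of the skin barrier (0.24), LOC106503913 (0.281) and DNASE1L2, a DNase of keratinocytes (0.31), and ALOX12B averaged 6.57 ± 1.88 FPKM in HC, 0.266 ± 0.0763 FPKM in MC and 2.44 ± 0.107 FPKM in LC. For GPX2 they were TUBB3 (0.115), BATF3 (0.136) and INPP1 (0.142), each with its highest mean in LC and its lowest in HC. TUBB3 averaged 0.178 FPKM in HC, 0.673 FPKM in MC and 1.21 FPKM in LC. BATF3 averaged 0.669 FPKM in HC, 1.42 FPKM in MC and 2.04 FPKM in LC. The added 1 shrinks the changes of genes this low, ALOX12B among them, so a near profile here does not mean a like fold change in FPKM.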

How the data were processed

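Each library of rumen epithelium has 1 deposited file with an FPKM value per gene, and the submitters' processing notes name Bowtie 1.2.0 and Cufflinks 2.2.1. No label states the unit, so it rests on Cufflinks and on the range of the values. Neither genome build nor strand is given in the sources used here, and positions are the files' own. Chromosome numbers come from RefSeq (assembly ARS1.2), which also matched TXN, CREBBP, CBR3, GSTM3, GSTO2 and GGT1 by gene ID. The files hold no counts, so depth is unknown; the sum of FPKM was lowest in LC1, at 756030, and reached 1051183.

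Gene names lost to date conversion were left out, 0 lines in each HC file and 18 to 21 lines in each MC and LC file. The HC files also held 11468 to 12038 empty lines each, and the MC and LC files 0. The form of the files thus differed between HC and the other diets, and its part in the comparisons with HC was not tested. Repeated names were summed. Tested were 11668 genes listed in all 9 files that reached 1 FPKM in 3 or more libraries. The diets were compared on log2(FPKM + 1) with limma 3.58.1 in R 4.3.3, 1 mean per diet, trend and robust moderation, two-sided. Members, lists, tests and alternatives were chosen with earlier results of these data known, and the alternatives for the pathway lists were added after seeing the data. Named are all members, some of the first 4 genes past the test per list and comparison by adjusted p, and the 3 nearest profiles of NQO1, HMOX1 and GPX2. Other gene names come from the marker lists. In simulated data with this spread for MC minus LC (11668 genes, 200 changed), the fit recovered 0% of genes changed by 0.5 log2, 80% at 1 and 98% at 2, and called 0, 7 and 13 unchanged genes. In the real MC minus LC 3894 genes passed. With fewer changed genes the adjustment is stricter, so these percentages do not give the power of the real fit.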

Additional observations from a re-analysis of the deposited data

How the results depend on the processing

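The 18 alternatives were a pseudocount of 0.1, no filter, median-of-ratios scaling, equal FPKM sums, quantile normalization, no trend or robust moderation, the replicate block, LC3 alone for LC, the smooth muscle covariate, and leaving out each of the 9 libraries. Of 19 changes past the test among the 9 members and TXN, 12 passed in all 18. Both counts include NQO1 and HMOX1 in MC minus LC, which were in view when the genes were chosen. The same share was not taken over all genes, so nothing is read from these counts. With LC3 alone, where that library is assumed to vary like the other diets, 1379 genes passed in HC minus LC and 2322 in MC minus LC, against 2939 and 3894, and 3 members against 6 in HC minus LC. The covariate gave 2013 genes in HC minus LC, against 2939, and 3 members there, against 6. In HC minus MC it gave 985 genes, against 2917, and 4 members, against 6. The cause of these falls was not tested. Leaving out 1 library gave 1753 to 2798 genes in HC minus LC (lowest without HC3) and 1608 to 4022 in HC minus MC (1608 without HC3, 1669 without MC1, 1689 without MC2, 1791 without HC2), 3 to 6 members in HC minus LC, and 52.8% to 78.5% for the NFE2L2 to KEAP1 ratio. Higher against lower calls in HC minus LC were 909 and 2030, but 1621 and 1187 with median-of-ratios scaling and 653 and 2288 with equal sums, and in HC minus MC 933 and 1984, but 1494 and 1232, and 538 and 2766. Changes that did not pass turned sign for GCLC in HC minus LC (0.098 median-of-ratios, 0.14 quantile, -0.095 to 0.025 as 1 library was left out), KEAP1 in HC minus LC (0.056 median-of-ratios) and in HC minus MC (-0.093 equal sums, -0.0025 without HC2) and SRXN1 in HC minus LC (-0.057 equal sums).

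Same-numbered libraries deviated together with r of -0.076 to 0.504, so the numbers were not taken as pairs, although 7 of 9 libraries correlated best with one of their own number. With the replicate block 3751, 4613 and 3871 genes passed in HC minus LC, MC minus LC and HC minus MC, and 6 members in each.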
